A study of Mus musculus with 15 samples.

Results

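Ephrins and Eph receptors were described in NIH3T3, an immortal mouse fibroblast line of embryonic origin, after ultraviolet light and without it. The family was taken as 10 listed symbols, which are the ligand genes Efna1, Efna2, Efna4, Efna5, Efnb1 and Efnb2 and the receptor genes Epha2, Ephb2, Ephb3 and Ephb4. All 10 were found among the 19069 genes of the RNA count files and among the 21881 genes of the promoter tables. The family was chosen on measured values, since Efna4 RNA was lower and the Epha2 promoter more open after UV. Its UV contrast is therefore given as a description, with standard errors and no p-values.

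Irradiated cells received 80 J/m2 of UV-C at 254 nm, followed by 6 h in new medium with DMSO. Untreated cells were not irradiated, and the labels do not say whether they were washed, re-fed or given DMSO. RNA-seq had 3 irradiated and 3 untreated libraries. Open chromatin (FAIRE-seq) and acetylation of histone H3 at lysine 27 (H3K27ac ChIP-seq) had 2 irradiated and 2 untreated samples each, deposited as 1 pool per condition, with 1 input DNA sample. All samples come from the same cell line. The labels do not say whether replicates were separate cultures, so the standard errors of fold changes reflect only variation between these libraries. They come from a fit that draws on all genes, and are not the spread of a single gene alone.

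Eph receptors are receptor tyrosine kinases that are switched on when a neighbouring cell presents an ephrin. Ephrin-A ligands are tied to the membrane by a lipid anchor and mostly bind EphA receptors, whereas ephrin-B ligands span the membrane and mostly bind EphB receptors. Signals run into the receptor cell and also back into the ligand cell, and in fibroblasts they act on the actin skeleton, on adhesion and on repulsion between cells that touch.

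Summed over genes, the libraries ranged from 14211528 to 22032701 counts, enough to test 14925 genes. All 10 fibroblast markers checked were at 10 CPM (counts scaled to a common library size with TMM) or more in every library. Their sum was 23400 to 39900 CPM in irradiated and 18900 to 23700 CPM in untreated libraries. The summed epithelial, blood, endothelial, muscle and neural markers reached at most 11.7 CPM per list in irradiated and 13.0 CPM in untreated libraries. Irradiated replicate 1 stood apart, with 17607 genes detected against 18350 to 18787 in the other libraries. The chi-square of its counts per degree of freedom was 52.07 against irradiated replicate 2 and 50.41 against irradiated replicate 3, and 5.06 between those libraries. For untreated replicate 1 it was 41.03 against untreated replicate 2 and 35.38 against untreated replicate 3, and 15.19 between those.

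Among the ligands and receptors, RNA of Efna4, Ephb3, Efna1, Efnb2 and Ephb4 was lower in irradiated cells, and RNA of none was called higher. A gene is called where its p in edgeR's quasi-likelihood test, adjusted over all genes, is below 0.05. Of the 10 genes 9 had enough counts to test, of which 5 were called lower and 0 higher, in a contrast where 12.4% of all tested genes were called lower and 7.70% higher. With DESeq2 the counts were also 5 and 0. The median log2 fold change of the 9 was −0.82, beside −0.01 over all tested genes. Since this contrast chose the family, nothing is read from these counts. In 5 of the 10 genes every irradiated library lay below every untreated one, as in 17.3% of all tested genes, and in 0 of 10 every irradiated library lay above, as in 16.6%. In bulk RNA, fewer cells expressing a gene and less RNA per cell cannot be told apart.

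**Figure D1:**
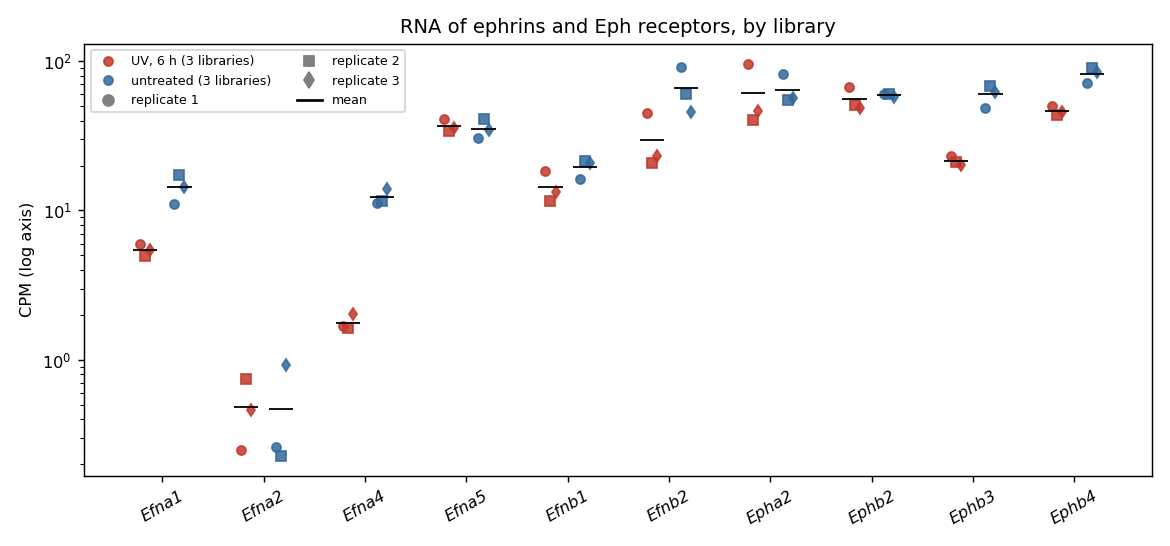
CPM of each gene on a log axis in 3 irradiated (red) and 3 untreated (blue) libraries, with marker shapes for replicates and black lines for means. Efna4 sits at 1.62 to 2.03 CPM in irradiated and 11.3 to 14.0 CPM in untreated libraries, while Epha2 and Efna5 overlap between the groups.

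Efna4, which encodes an ephrin-A ligand, was at 1.67, 1.62 and 2.03 CPM in irradiated replicates 1 to 3, against 11.3, 11.6 and 14.0 CPM in untreated replicates 1 to 3. The groups were far apart and the irradiated libraries nearly equal. The means were 1.77 ± 0.223 CPM in irradiated and 12.3 ± 1.47 CPM in untreated cells (SD, n = 3 each), and the log2 fold change was −2.79 ± 0.24 (SE). The raw counts behind it were 24 to 35 in irradiated and 218 to 366 in untreated libraries. The authors' deposited table gives a log2 fold change of −2.77 for Efna4. That table also lists Efna1 at −1.37, Ephb3 at −1.46 and Ephb4 at −0.80. It holds 4 of the 10 genes among its 2068 rows, whose largest adjusted p is 0.0999. Efnb2, called lower here, is not among them.

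Efna1 encodes the ephrin-A ligand best known for binding EphA2. It was at 6.00, 4.98 and 5.44 CPM in irradiated libraries and at 11.0, 17.4 and 14.4 CPM in untreated ones. The groups did not overlap, and the untreated libraries varied more, with untreated replicate 1 the lowest. The log2 fold change was −1.38 ± 0.21 (SE). Efna5, a ligand of several EphA receptors, was at 40.8, 34.0 and 35.8 CPM in irradiated and 30.4, 41.1 and 34.5 CPM in untreated libraries, so the groups overlapped. Its log2 fold change was 0.06 ± 0.18 (SE), and the sign turned when scaling by library totals alone (−0.18) and without irradiated replicate 1 (−0.03). Efna2 had only 4 to 11 counts in irradiated and 5 to 24 in untreated libraries and was not tested.

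The ephrin-B ligands span the membrane and can signal back into the cell that carries them. Efnb2, the ligand of EphB4 in vessel formation, was at 45.2, 20.9 and 23.1 CPM in irradiated libraries. In untreated libraries it was at 90.9, 60.7 and 46.0 CPM. Replicate 1 was the highest library in both groups, and the groups were separated only narrowly, by irradiated replicate 1 and untreated replicate 3. The log2 fold change was −1.14 ± 0.28 (SE). It was −1.59 without irradiated replicate 1 and −0.74 without untreated replicate 1, and without untreated replicate 2 it no longer passed the threshold (−1.10). Efnb1, the X-linked ephrin-B gene, was at 18.5, 11.5 and 13.3 CPM in irradiated and 16.3, 21.4 and 20.7 CPM in untreated libraries, with overlap and no call. Its log2 fold change of −0.43 ± 0.20 (SE) was −0.67 without irradiated replicate 1, where Efnb1 was called lower, as it was with library totals alone (−0.70).

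Among the EphB receptors, Ephb3 and Ephb4 had the lower RNA and Ephb2 was close to its untreated level. Ephb3 was at 23.1, 21.1 and 20.1 CPM in irradiated and 48.6, 68.4 and 62.5 CPM in untreated libraries, a log2 fold change of −1.48 ± 0.18 (SE). Ephb4, the receptor for ephrin-B2, was at 50.4, 43.4 and 45.5 CPM in irradiated and 71.4, 90.4 and 84.2 CPM in untreated libraries. Its log2 fold change was −0.82 ± 0.18 (SE). For both genes the irradiated libraries lay close together and below all untreated ones. Ephb2 was at 67.2, 51.2 and 48.6 CPM in irradiated and 60.3, 59.9 and 57.4 CPM in untreated libraries, with a log2 fold change of −0.09 ± 0.18 (SE) and overlapping groups. The Ephb2 sign turned when untreated replicate 1, untreated replicate 2 or irradiated replicate 3 was left out (0.0003 to 0.04), and with library totals alone Ephb2 was called lower (−0.34).

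Epha2, the only EphA receptor gene among those listed, was at 96.3, 40.3 and 46.4 CPM in irradiated libraries. In untreated libraries it was at 81.4, 55.3 and 56.9 CPM. Replicate 1 was again highest in both groups, and irradiated replicate 1 exceeded every untreated library while irradiated replicates 2 and 3 lay below all of them. The log2 fold change of −0.08 ± 0.27 (SE) had no stable sign. It was −0.59 without irradiated replicate 1, where Epha2 was called lower, and 0.15 and 0.09 without irradiated replicates 2 and 3. Without untreated replicate 1 it was 0.22.

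At promoters, H3K27ac was higher after UV at Efnb2 and Epha2 and lower at Efna1, Ephb4 and Efna4, and FAIRE was higher at Epha2. The promoter tables give reads in a 1000-base window per gene and log2 enrichment over input, and differences are given as irradiated minus untreated. Each value rests on 1 pool per condition, so there is no spread between replicates and no test, and the 95% intervals of depth-scaled read ratios below cover counting error only. For H3K27ac, 2 of 10 promoters had a difference of 1 or more, as did 2.38% of all promoters, and 1 of 10 had −1 or less, as did 3.43%. For FAIRE, 0 of 10 reached 1, as did 0.00457% of all promoters, and 0 of 10 reached −1, as did 1.05%. For H3K27ac the ratio's interval lay above 1 at 2 of 10 promoters, as at 19.6% of all promoters, and below 1 at 4 of 10, as at 21.0%. For FAIRE it lay above 1 at 1 of 10, as at 1.19%, and below 1 at 1 of 10, as at 18.8%. The FAIRE promoter above 1 is that of Epha2, whose opening was used to choose the family, and nothing is read from these counts.

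**Figure D2:**
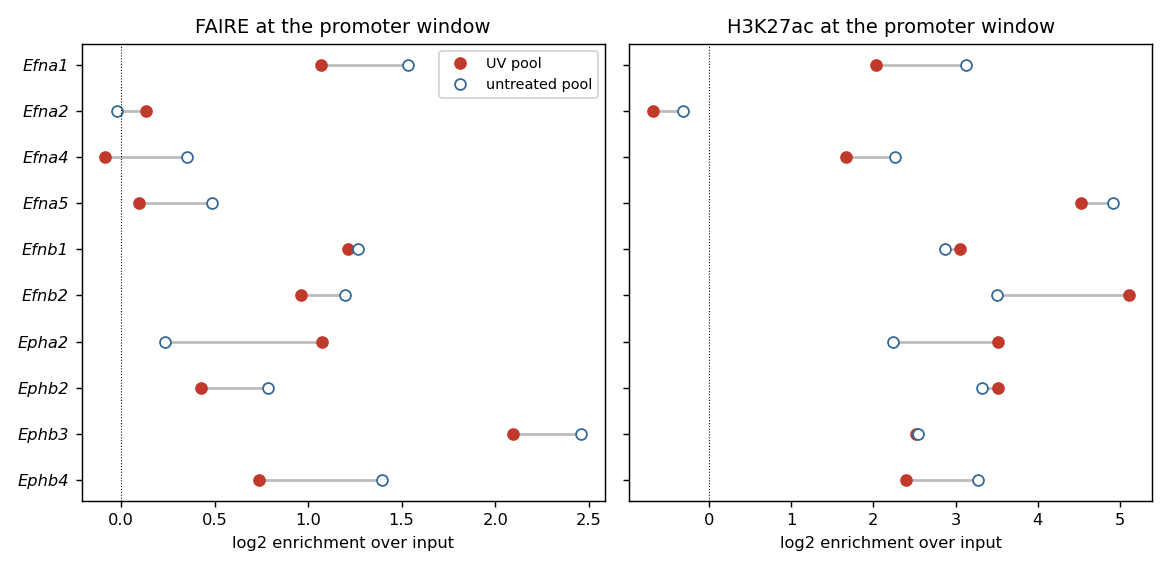
Log2 enrichment over input at the promoter window of each gene for FAIRE (left) and H3K27ac (right), with the irradiated pool as filled red and the untreated pool as open blue circles. At Epha2 the irradiated pool lies to the right in both assays, and at Efnb2 in H3K27ac, where enrichment is 5.11 in irradiated and 3.50 in untreated cells.

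The Epha2 promoter held 51 FAIRE reads in the irradiated and 26 in the untreated pool, with 30 input reads. Its FAIRE log2 enrichment was 1.07 in irradiated and 0.23 in untreated cells, a difference of 0.84 that ranked 8 from the highest of 21881 promoters. The depth-scaled read ratio was 2.44 (95% interval 1.50 to 4.08). Since this opening was used to choose the family, its rank and interval are a description only. The same window held 412 H3K27ac reads in the irradiated and 160 in the untreated pool, with a ratio of 2.55 (95% interval 2.12 to 3.08). H3K27ac log2 enrichment was 3.52 in irradiated and 2.24 in untreated cells, a difference of 1.28 at rank 206 from the highest. Higher openness and acetylation at Epha2 thus stood beside RNA whose groups overlapped.

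The Efnb2 promoter held 1224 H3K27ac reads in the irradiated pool and 390 in the untreated pool, a ratio of 3.11 (95% interval 2.77 to 3.50). Log2 enrichment was 5.11 in irradiated and 3.50 in untreated cells, and the difference of 1.60 ranked 80 from the highest of all promoters. FAIRE there held 44 reads in the irradiated and 63 in the untreated pool, a ratio of 0.870 (95% interval 0.578 to 1.30) that did not exclude equality. The acetylation difference at Efnb2 thus ran opposite to its RNA, which was lower.

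The printed promoters run from 250 bases before to 50 after the RefSeq start in build GRCm38.p6, 5′ to 3′ on the gene's strand, and are shown because acetylation at these genes differed. The position of the authors' windows, made in build mm9, is not given in the sources used here, so they may not share the start. Capitals mark matches on either strand to 6 motifs. These are the AP-1 site spelled TGANTCA and the cyclic AMP response element (CRE) spelled TGACGTCA, neither of which contains the other. The E-box was searched as CACGTG, the GC box of Sp1-type factors was searched as GGGCGG, the CCAAT box by its own letters, and the TATA box was searched as TATAAA. The Epha2 sequence is chr4:141300971-141301270 on the plus strand and the Efnb2 sequence is chr8:8661193-8661492 on the minus strand.
Epha2: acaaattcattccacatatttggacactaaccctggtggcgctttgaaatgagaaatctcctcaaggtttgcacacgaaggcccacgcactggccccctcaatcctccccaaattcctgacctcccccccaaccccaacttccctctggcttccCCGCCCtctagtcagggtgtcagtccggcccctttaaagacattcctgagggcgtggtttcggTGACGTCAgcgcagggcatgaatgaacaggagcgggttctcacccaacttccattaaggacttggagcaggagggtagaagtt
Efnb2: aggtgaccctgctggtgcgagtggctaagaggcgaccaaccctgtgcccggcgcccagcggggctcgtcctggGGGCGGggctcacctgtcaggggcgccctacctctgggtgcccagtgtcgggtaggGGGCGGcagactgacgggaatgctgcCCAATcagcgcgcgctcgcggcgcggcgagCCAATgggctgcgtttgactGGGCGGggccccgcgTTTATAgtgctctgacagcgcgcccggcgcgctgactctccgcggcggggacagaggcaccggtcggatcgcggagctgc

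Epha2 holds a full CRE, the motif bound by CREB and ATF factors, at bases 33 to 26 before the start. Of all 32851 promoter sequences of this length, 1.79% hold it, and 1 of the 10 genes, Epha2, does. The AP-1 spelling is found in 7.81% of all promoters and in 0 of the 10 genes. Efnb2 holds 3 GC boxes, 2 CCAAT boxes and 1 TATA box. GC boxes occur in 7 of the 10 genes, or 8 of their 11 starts, and in 35.7% of all promoters. The sequences of the 10 genes are 54.7% to 74.7% G and C, beside a median of 52.7% over all promoters, and motif counts were not adjusted for this. The CCAAT box occurs in 5 of the 10 genes and in 37.4% of all promoters, the TATA box in 1 of 10 and 13.6%, and the E-box in 0 of 10 and 7.15%. A match describes the letters and is not a site of binding.

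H3K27ac was below its untreated level at 6 of 10 promoters, as at 56.1% of all promoters, so nothing is read from this count. The interval of the ratio lay below 1 at Efna1, Ephb4, Efna4 and Efna5, as at 21.0% of all promoters, but not at Efna2 or Ephb3. Efna1 held 116 reads in the irradiated and 265 in the untreated pool, a ratio of 0.434 (95% interval 0.346 to 0.542) and a log2 enrichment difference of −1.10. Ephb4 held 181 reads in the irradiated and 343 in the untreated pool, a ratio of 0.523 (95% interval 0.435 to 0.628) and a difference of −0.87. At Ephb4 the FAIRE ratio of 0.591 (95% interval 0.388 to 0.885) was also below 1, from 37 reads in the irradiated and 78 in the untreated pool. All 3 readouts had differences below 0 at Efna1, Efna4, Ephb3 and Ephb4. The FAIRE intervals of Efna1, Efna4 and Ephb3 and the H3K27ac interval of Ephb3 included equal reads. FAIRE differences were below 0 at 68.0% of all promoters. No share of all genes with all 3 readouts below 0 is given, so nothing is read from this agreement. At Ephb3 the FAIRE difference turned above 0 with quantile normalization and without the input, and the H3K27ac difference with quantile normalization.

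Efna4, with the lowest RNA fold change of the family, held 139 H3K27ac reads in the irradiated and 216 in the untreated pool. Its ratio was 0.638 (95% interval 0.512 to 0.793), and its difference of −0.59 was at percentile 11.9 of all promoters. FAIRE at Efna4 held 22 reads in the irradiated and 43 in the untreated pool, a ratio of 0.637 (95% interval 0.363 to 1.09). Its input reads numbered 46, the most of the 10 windows. The sequences of Efna4, chr3:89337979-89338278, and of the outer of 2 starts of Efna1, chr3:89280902-89281201, both on the minus strand of GRCm38.p6, are shown as the promoters of the ligands whose RNA and acetylation were both lower. Efna4 holds 1 CCAAT box and 0 GC boxes, and this start of Efna1 holds 1 GC box.
Efna4: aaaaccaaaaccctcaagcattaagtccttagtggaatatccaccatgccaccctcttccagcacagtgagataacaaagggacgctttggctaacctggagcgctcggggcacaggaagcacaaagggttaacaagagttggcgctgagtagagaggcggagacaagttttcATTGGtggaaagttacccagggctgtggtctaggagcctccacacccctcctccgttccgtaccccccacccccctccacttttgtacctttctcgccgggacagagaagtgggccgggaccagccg
Efna1: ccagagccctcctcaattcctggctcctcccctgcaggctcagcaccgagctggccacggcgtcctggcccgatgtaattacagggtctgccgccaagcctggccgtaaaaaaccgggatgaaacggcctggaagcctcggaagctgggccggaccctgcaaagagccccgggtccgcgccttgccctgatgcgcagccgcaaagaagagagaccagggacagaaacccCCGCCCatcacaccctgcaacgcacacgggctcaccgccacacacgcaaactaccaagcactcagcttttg

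The remaining promoters moved less or held few reads. Efna5 had the strongest untreated H3K27ac of the family, at percentile 99.6 of all promoters, with 844 reads in the irradiated and 1104 in the untreated pool and a ratio of 0.758 (95% interval 0.692 to 0.830). Its RNA did not separate the groups. Ephb3 had the most open untreated promoter, at percentile 98.3 for FAIRE, with 122 reads in the irradiated and 184 in the untreated pool. H3K27ac at Ephb3 was 202 reads in the irradiated and 204 in the untreated pool, a ratio of 0.982 (95% interval 0.804 to 1.20), beside RNA that was lower. Efnb1 and Ephb2 had H3K27ac ratios of 1.14 (95% interval 0.921 to 1.41) and 1.15 (95% interval 0.985 to 1.33). Efna2 held 5 H3K27ac reads in the irradiated and 11 in the untreated pool, below its scaled input in both.

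Across the 9 genes with RNA tested, RNA and H3K27ac differed in the same direction in 4 and in opposite directions in 5. The RNA sign of Efna5, Epha2 and Ephb2, all counted as opposite, turned in some alternatives, and leaving out untreated replicate 1 or irradiated replicate 3 gave 6 in the same direction and 3 opposite. Of the 6 genes whose RNA sign held in all alternatives, 4 had the same direction, and Efnb1 and Efnb2 the opposite one. FAIRE and H3K27ac shared a direction at 6 of 10 promoters. No share over all genes or promoters is given for either agreement, so neither is read as a trait of the family. The median FAIRE difference of the 10 was −0.36 beside −0.17 over all promoters, of which 68.0% were below 0. The direction of this median depended on scaling, since it was 0.07 with quantile normalization and 0.01 without input. Of the 10 FAIRE differences 7 kept their sign in all 4 alternatives, and Efnb1, Efnb2 and Ephb3 did not. For H3K27ac 9 of 10 kept it, Ephb3 being the exception.

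**Figure D3:**
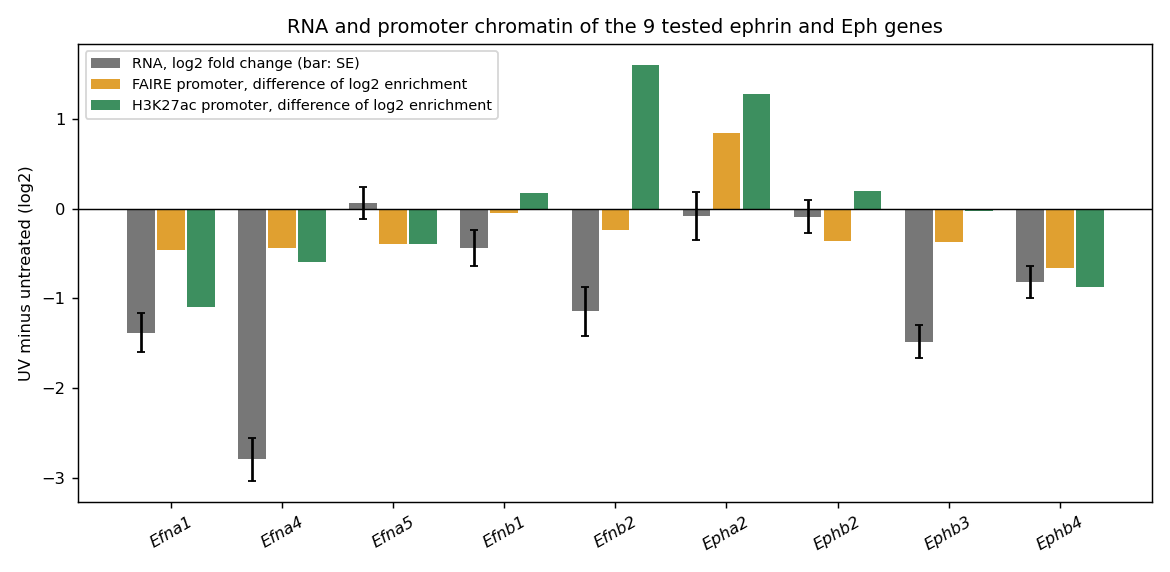
RNA log2 fold change (grey, error bars are SE), FAIRE difference (orange) and H3K27ac difference (green), irradiated minus untreated, for the 9 genes with enough RNA counts. All bars point down at Efna1, Efna4, Ephb4 and, with an H3K27ac bar close to 0 that turns up under quantile normalization, Ephb3. FAIRE differences were below 0 at 68.0% of all promoters. At Efnb2 the H3K27ac bar stands at 1.60 and the RNA bar at −1.14.

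Efna1 and Efna4 lie near each other on chromosome 3 with Efna3 between them and no other protein-coding gene, by the gene order of RefSeq in GRCm38.p6. Efna3, an ephrin-A gene outside the 10, fell to 0.911 ± 0.200 CPM in irradiated cells, against 3.48 ± 0.161 CPM in untreated cells (SD, n = 3 each), a log2 fold change of −1.93 ± 0.41 (SE, edgeR adjusted p = 0.0023). Its promoter held 56 H3K27ac reads in the irradiated and 99 in the untreated pool, a difference of −0.68. The 10 protein-coding genes on either side were then examined, a choice made after the ephrin values were seen. Of these 20 genes 19 were tested, of which 5 were called higher and 1 lower, with a median log2 fold change of 0.27, beside 7.70% higher, 12.4% lower and a median of −0.01 over all tested genes. These calls were few and depended on the libraries: rises numbered 1 without irradiated replicate 3, 9 without untreated replicate 2 and 2 with DESeq2, and falls 0 or 1 in every fit. The 3 ephrins stayed called lower in all 12 alternatives.

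Promoter acetylation near these ephrins is given for each side, and the sides were not tested against each other. Beyond Efna1, 8 of 10 promoters had less H3K27ac in irradiated cells, 3 of them with a difference of −1 or less, and the median was −0.67. Of all promoters 56.1% had less and 3.43% had −1 or less, with a median of −0.01. In RNA 4 of these 10 genes were called higher and 0 lower. Beyond Efna4, 3 of 9 promoters had less, and the median was 0.16. Whether windows of close genes overlap was not tested.

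**Figure D4:**
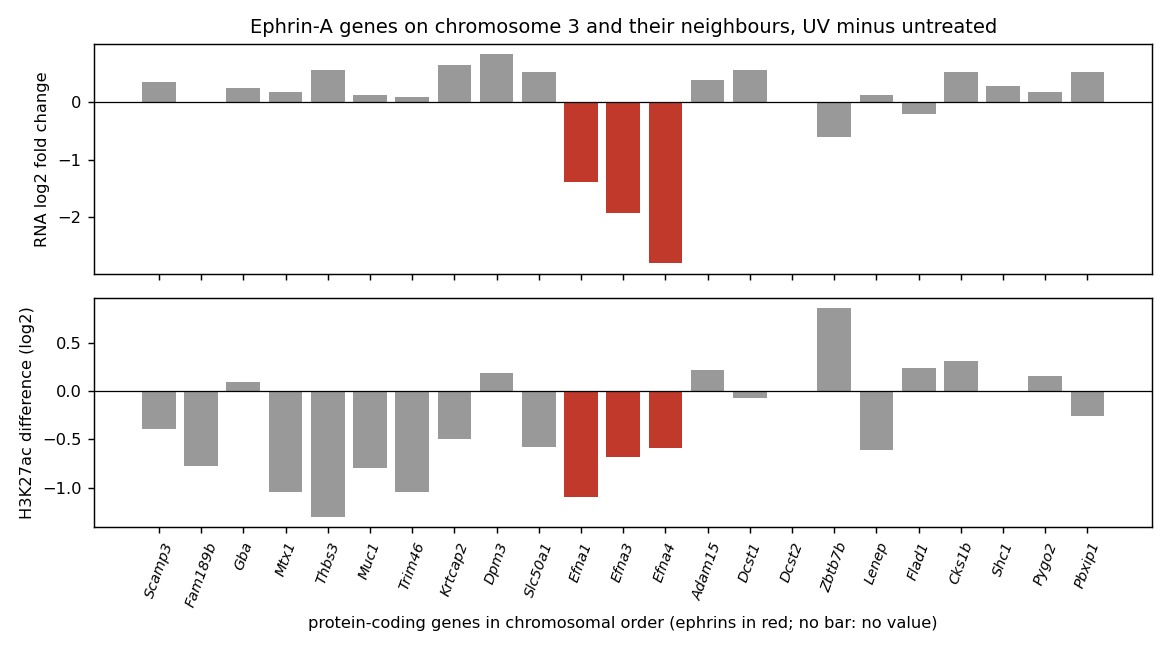
RNA log2 fold change (top) and H3K27ac difference at the promoter (bottom), irradiated minus untreated, for the ephrin-A genes of chromosome 3 (red) and the 10 protein-coding genes on either side (grey), in chromosomal order. The ephrins have the 3 lowest RNA bars, and the promoters left of Efna1 lie mostly below 0.

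Among tested genes averaging 5 CPM or more, the 5 whose RNA profile was most like that of Efna4 were Tet2, Ccdc94, Hist1h4a, Zfp574 and Map3k11. Their Pearson coefficients of log2(CPM + 1) over the 6 libraries were 0.996 to 0.997, as a description of 2 groups of 3 libraries that stand apart. Hist1h4a has near-identical copies, so its counts are uncertain. By the same measure Ephb3 ranked 205, Ephb4 ranked 412 and Efna1 ranked 501 of 9624 genes, with coefficients of 0.955 to 0.975. The other family members at this level were less like Efna4, with Efnb2 at rank 2246 (0.756), Efnb1 at 2534 (0.698), Ephb2 at 3895 (0.292), Epha2 at 4253 (0.161) and Efna5 at 5434 (−0.223).

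Of the 12 ephrin and Eph genes outside the 10, 11 were tested. In the edgeR test 2 of these fell and 0 rose, beside 12.4% and 7.70% of all tested genes. Epha4, a receptor for both ephrin classes, fell to 61.1 ± 23.4 CPM in irradiated cells, against 118 ± 25 CPM in untreated cells (SD, n = 3 each), a log2 fold change of −0.94 ± 0.24 (SE, edgeR adjusted p = 0.00917), which did not pass without untreated replicate 2 (edgeR adjusted p = 0.0531). Efna3 is given above. Epha1 had a log2 fold change of 0.44 (edgeR adjusted p = 0.117), but was called higher without untreated replicate 3 or irradiated replicate 2 (edgeR adjusted p = 0.0198 and 0.0487). Values with no call in that fit were Efnb3 0.49, Ephb6 0.23 and Epha7 −0.48. Epha3, Epha5, Epha6, Epha8 and Ephb1 averaged at most 1.16 CPM in either group and had no call, at log2 fold changes of −0.43 (Ephb1) to 0.62 (Epha6), and Epha10 had too few counts to test. The median of the 11 was 0.04.

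Of 58 genes that work with Eph receptors and ephrins inside the cell or at the membrane, all tested, 9 fell and 2 rose, beside 12.4% and 7.70% of all genes. Rises numbered 7 without untreated replicate 1, 7 without untreated replicate 2 and 0 without irradiated replicate 3, and falls numbered 19 with library totals alone, so these counts depended on the libraries and the scaling. The median log2 fold change was −0.07.

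**Figure D5:**
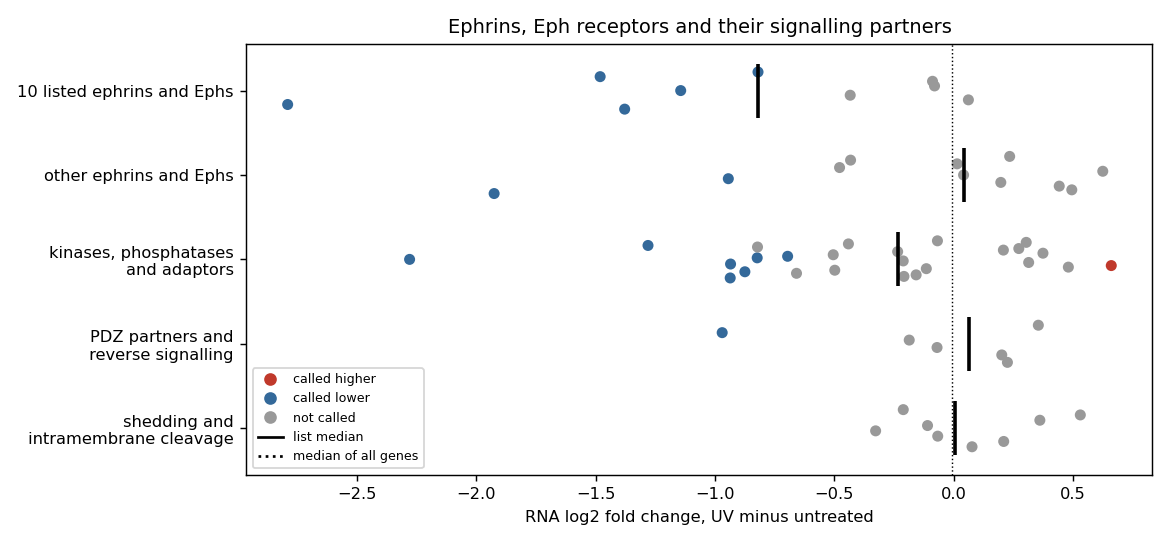
RNA log2 fold change, irradiated minus untreated, of each tested gene by list, without 1 list that is not reported, in blue where called lower, red where called higher and grey otherwise. Solid lines are list medians and the dotted line is the median of all genes. Most calls below 0 outside the 10 listed genes lie among kinases, phosphatases and adaptors, which is also the longest list drawn, with 25 genes tested.

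Among kinases, phosphatases and adaptors 7 of 25 fell and 1 rose, beside 12.4% and 7.70% of all tested genes. Nck1, an SH2 and SH3 adaptor that links active Eph receptors to actin regulators, fell to 5.64 ± 0.271 CPM in irradiated cells, against 27.4 ± 3.72 CPM in untreated cells (SD, n = 3 each), a log2 fold change of −2.28 ± 0.19 (SE, edgeR adjusted p = 2.91e-07). Its paralog Nck2 fell by 0.82 on the log2 scale (edgeR adjusted p = 0.00355). Pik3r1, a regulatory subunit of phosphoinositide 3-kinase, fell by 1.28 (edgeR adjusted p = 0.000293). The kinase gene Src fell by 0.94 (edgeR adjusted p = 0.0014) and the kinase gene Abl1 by 0.88 (edgeR adjusted p = 0.00348). Ptpn1, which encodes the tyrosine phosphatase PTP1B, fell by 0.94 (edgeR adjusted p = 0.0025). Acp1, the low molecular weight tyrosine phosphatase gene, was the rise, at a log2 fold change of 0.66 (edgeR adjusted p = 0.0248), and is named after its value was seen. Without irradiated replicate 3 the calls of Nck2, Abl1 and Acp1 were lost (edgeR adjusted p = 0.0582, 0.0843 and 0.19), and the Acp1 call also without a low-count filter (edgeR adjusted p = 0.0831). Those of Nck1, Pik3r1, Src and Ptpn1 held in all 12 alternatives.

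Of 6 partners of ephrin-B tails and reverse signalling, 1 fell, which was Rgs3, a regulator of G-protein signalling (log2 fold change −0.97 ± 0.22 SE, edgeR adjusted p = 0.00343), a call lost without untreated replicate 2 or 3 (edgeR adjusted p = 0.0896 and 0.0645). Of 8 genes for shedding and intramembrane cleavage 0 were called in the edgeR test and 0 with DESeq2, and 1 had an unadjusted edgeR p below 0.05. Psenen, a gamma-secretase subunit gene, had the smallest p (log2 fold change 0.53, edgeR adjusted p = 0.0519). Psenen passed as higher when any 1 of 4 libraries, the first and second replicates of both groups, was left out, with the smallest p on leaving out untreated replicate 2 (log2 fold change 0.83, edgeR adjusted p = 0.00857), and with the stricter filter on low CPM (edgeR adjusted p = 0.0304).

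At the promoters of these 58 genes 0 differed by 1 or more in size in either assay. Their median H3K27ac difference was 0.17 beside −0.01 over all promoters, and their median FAIRE difference was −0.32 beside −0.17.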

How the data were processed

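For RNA the authors deposited whole-number read counts of each gene, unscaled. Tools named in the submitters' processing notes are TopHat, Bowtie 0.12.9, DESeq2 and MACS2, with build mm9, and the sources used here do not state their roles. Per the file headers, the promoter tables hold read counts of merged replicates and a log2 enrichment that the authors computed, and recomputing it showed that 16 was added both to the reads and to the scaled input reads. Columns headed DMSO were taken as irradiated, since the labels' protocol gives DMSO to irradiated cells. A further 8 columns of values, counted over the promoter and peak tables together, were not used. The authors' deposited table of RNA differences gave log2 fold changes and adjusted p-values.

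RNA was fitted in R 4.3.3 with edgeR 4.0.16 (filterByExpr, TMM, glmQLFit, quasi-likelihood F test, Benjamini-Hochberg over 14925 genes, threshold 0.05). Standard errors were derived from the fold change and F. The fit was tested on simulated data. For promoters, scipy 1.17.1, pandas 2.3.3 and numpy 2.4.6 were used under Python 3.11.15. Read ratios were scaled by the pools' depth, 0.8029 for FAIRE and 1.0085 for H3K27ac (irradiated over untreated), and their 95% intervals are exact (Clopper-Pearson). CPM are not scaled by gene length, so levels were not compared between genes. Promoter sequences were matched by symbol for 10 of 10 genes.

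The genes, lists and tests were chosen with earlier results of these data known. Of the lists of signalling genes 1 enters the counts over all 58 genes and is otherwise not reported here. All 10 genes were named, up to 6 called genes per list by smallest p, or the 1 with the smallest p where none was called. Alternatives were DESeq2 1.42.0, its size factors, library totals, other filters, a replicate block and each library left out, and for promoters centring, quantile normalization, 1 read added and no input. Peaks near the genes were not used here, as their positions are in mm9 and the gene annotation at hand is not. Figures were drawn with matplotlib 3.10.9.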

Additional observations from a re-analysis of the deposited data

How the results depend on the processing

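For the 10 ephrin and Eph genes, calls of lower RNA numbered 5 with every library, where 12.4% of all tested genes were called lower. They numbered 4 to 7 when 1 library was left out and 7 with library totals alone. Calls of higher RNA numbered 0 in every fit, beside 7.70% of all tested genes with every library. Shares of all genes in the alternatives are not given here, and the contrast chose the family, so nothing is read from these counts. Efna1, Efna4, Ephb3 and Ephb4 kept direction and call in all 12 alternatives, with Efna4 between −3.04 and −2.58. With 1 library left out Efna5 ranged from −0.034 to 0.301, Epha2 from −0.589 to 0.221 and Ephb2 from −0.263 to 0.0437, and Efna5 was −0.178 with library totals alone. None of these was called in the fit of all libraries, and the cause was not tested. Library totals alone moved the median of all tested genes to −0.24.

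Of the 58 signalling genes 2 rose and 9 fell with every library, beside 7.70% and 12.4% of all tested genes. Shares of all genes in the alternatives are not given here. Rises numbered 0 without a low-count filter, 4 with at least 1 CPM in 3 libraries, and 0 to 7 with 1 library left out, where falls numbered 6 to 13. With library totals alone 19 fell. With the replicate number as a block the rises and falls numbered 3 and 10, and lower calls among the 10 genes 5, and Psenen passed as higher (log2 fold change 0.55, edgeR adjusted p = 0.0252). Deviations from group means correlated at 0.155, −0.58 and 0.504 for same-numbered libraries, and at −0.707 to 0.683 for the other pairs. With 3 libraries per group, each measured from its own group mean, these values cannot settle whether the numbers pair the samples.

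FAIRE differences of 1 or more numbered 1 of 10, against 0, after centring, with quantile normalization, with 1 read added and without input. That promoter was Epha2, whose opening was used to choose the family, at 1.01 after centring to 1.63 without input. H3K27ac differences of −1 or less, 1 of 10, numbered 0 with quantile normalization and 2 with 1 read added and without input. Shares of all promoters in these alternatives are not given here, so nothing is read from these counts. The planned peak comparison within 50 kb of the promoters, and its distances of 25 and 100 kb and its centring, were not run. FAIRE windows held 16 to 122 reads in irradiated and 16 to 184 in untreated pools, which limits what a single promoter can show.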
